A study of Mus musculus with 70 samples.

Results

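CD45+ cells of histotripsy-abscopal tumors were compared with CD45+ cells of control tumors 7 days after the ablation. The sample labels placed 14 of the 70 libraries of the series in the comparison, 4 histotripsy-abscopal and 10 control, and every gene with a name was taken in. The count table held 55487 named lines, of which 10817 passed the filter on low counts and were tested. C57BL/6 mice of either sex, 6 to 8 weeks old, had carried a tumor of the melanoma line B16F10 on each flank. Control mice received a sham ablation of 1 tumor 9 or 10 days after inoculation, and the remaining mice received partial histotripsy of 1 tumor at the same age of the tumors. Histotripsy is focused ultrasound that breaks tissue apart mechanically without heating it. The ablated tumor is called histotripsy-treated and the tumor on the other flank, which received no ultrasound, histotripsy-abscopal. Both groups compared here therefore carried bilateral B16F10 tumors and differed in whether the tumor of the opposite flank had been ablated. Groups were not randomized, and the sources used here do not give the sex of the mouse, whether 1 or both tumors of a control mouse were sampled, or which abscopal and treated tumors came from the same mouse.

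CD45, the product of Ptprc, is a phosphatase on the surface of blood-derived cells, so the sorted fraction mixes T, B and NK cells, monocytes, macrophages, dendritic cells and neutrophils in unknown shares. An abscopal response is a change in a tumor that was not itself treated, and immune cells that travel through blood and lymph nodes are its usual candidates. Type I and type II interferons are among the signals followed in such cells: they bind receptors that act through JAK kinases and STAT and IRF transcription factors, and they induce antiviral effectors, nucleic acid sensors, GTPases, chemokines and antigen presentation. RNA was counted by QuantSeq, which reads the 3′ end of each polyadenylated transcript, so counts were not divided by transcript length. Levels are given as CPM, counts scaled to a library of 1000000 after scaling of the libraries by the trimmed mean of M-values. In such bulk samples fewer cells of a type and less RNA per cell cannot be told apart.

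Depth ran from 887798 to 2323203 counts in the 14 libraries. CT010467.1, an rRNA gene, took 6.66% to 13.03% of the counts, with the highest share in abscopal replicate 4. Ptprc was measured at 851, 1035, 817 and 1227 CPM in the 4 abscopal libraries, given here and below in the order of their replicate numbers, and at 655 to 1189 (median 958) CPM in the 10 control libraries. The fraction thus held its defining gene in every library, with 3 of 4 abscopal values inside the control range. T cell, macrophage, neutrophil, dendritic cell, NK cell and B cell markers were all detected, keratinocyte and skeletal muscle markers summed to at most 7.99 CPM in any of the 14 libraries, and of 8 fibroblast markers only Fn1, which macrophages also express, passed the filter. Abscopal replicates 1, 3 and 4 stood apart. Replicate 1 held the highest Jchain, Igkc and Igha levels and the lowest summed neutrophil markers of the 14, and replicate 3 held the highest counts of the melanocyte gene Pmel, at 61.5 CPM against at most 32.4 CPM in control libraries. Replicate 4 had 896229 counts and the highest scores of the 14 on the principal components PC1 and PC3, 22.4 and 14.4, and its rRNA share of 13.03% and that of replicate 2, 11.5%, exceeded the highest control share of 10.5%. The part of the rRNA share in the results was not tested. Values without 1 of these libraries are given beside many of the genes and lists that moved without it, but not beside all. Xist, the RNA of the inactive X chromosome of female cells, was at 407 to 894 CPM in all 14 libraries, and 4 Y-linked genes had 52 counts over all 14.

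No gene was called at an adjusted p under 0.05 in edgeR's quasi-likelihood test, 0% of 10817 in either direction, and the smallest Benjamini-Hochberg adjusted p was 0.494. At an unadjusted p under 0.05 there were 806 genes, 7.45% of those tested, of which 465 were higher and 341 lower in abscopal libraries, 4.3% and 3.15% of the genes tested. DESeq2 also called 0 genes, with 718 at an unadjusted p under 0.05, and limma-voom called 0, with 778. Leaving out any 1 of the 14 libraries also gave 0 called genes, but the number at an unadjusted p under 0.05 was 530 without abscopal replicate 1 and 1406 without abscopal replicate 3. Without the filter on low counts the same test called 102 of 29636 genes, 33 higher and 69 lower, of which 98 pass the filter. The prior degrees of freedom were infinite in that fit, against 8.67 with the filter, so that a gene's own spread did not enter its test. The median log2 fold change, abscopal minus control, over all genes tested was -0.01, and 48.5% of genes had a positive value. The median half-width of the unadjusted 95% interval of a gene's log2 fold change was 0.43. For a gene of usual spread a smaller difference would not reach an unadjusted p under 0.05 with these libraries. A call after adjustment needs a larger difference still, so 0 calls do not exclude differences above 0.43. All differences described below are therefore measured values with their intervals, and none of them passed the test across the 10817 genes.

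The principal components of the 500 most variable genes did not part the groups, which overlapped on each of the first 3. PC1 carried 25.7% of the variance, with abscopal libraries between -9.59 and 22.4 and control libraries between -18.1 and 14.6, and PC2 carried 14.6%. PC3 carried 10.1%, with abscopal libraries between 0.91 and 14.4 (median 4.82) and control libraries between -19.3 and 2.49 (median -1.22). Abscopal replicates 3 and 4 lay above every control library on PC3. A pseudo-F of abscopal against control over the 500 genes was 1.45, with p = 0.0969 in a one-sided exact permutation test over 1001 splits. Without abscopal replicate 3 the pseudo-F was 1.96 with p = 0.0315 in the same exact test, and without any other single library p lay between 0.0503 and 0.206.

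**Figure D1:**
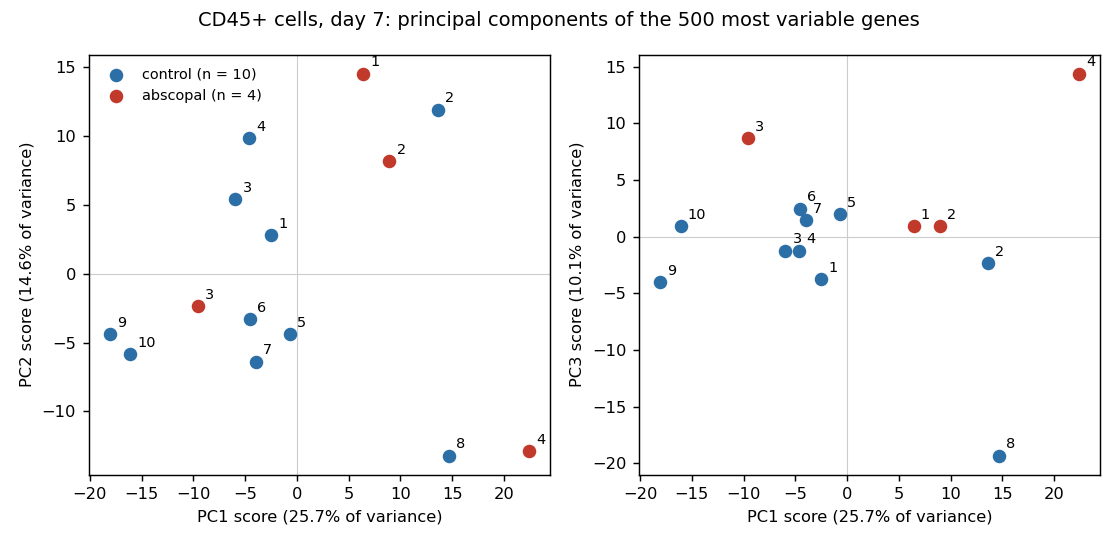
Scores of the 14 CD45+ day 7 libraries on PC1 against PC2 (left) and PC1 against PC3 (right), from log10(CPM + 1) of the 500 most variable genes as Z-scores; points are libraries with their replicate numbers, red abscopal and blue control. Abscopal libraries lie between -9.59 and 22.4 on PC1, within and beyond the control range of -18.1 to 14.6. On PC3 they lie between 0.91 and 14.4, against -19.3 to 2.49 in control libraries.

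Interferon-induced genes were followed in 6 lists with 127 tested members. Their promoters frequently carry the interferon-stimulated response element, the site bound by STAT and IRF factors, and windows around matches to its core, GAAA and a second GAAA with any 2 bases between them, are shown for 6 of the genes described below, so that the shared element can be seen beside the values. Sequences are from RefSeq on GRCm38.p6, read 5′ to 3′ along the transcribed strand and only before the RefSeq start site, with matches on either strand in capitals. Gene starts in GENCODE can differ: the Slfn5 window lies inside the GENCODE gene, and the Gbp2 window spans its GENCODE start.
Isg15, chr4:156200842-156200941, reverse strand: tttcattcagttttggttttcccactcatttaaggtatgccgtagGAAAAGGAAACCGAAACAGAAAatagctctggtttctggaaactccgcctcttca
Rsad2, chr12:26456518-26456617, reverse strand: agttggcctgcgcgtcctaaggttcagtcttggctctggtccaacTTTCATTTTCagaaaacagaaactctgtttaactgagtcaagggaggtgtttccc
Stat2, chr10:128270248-128270330, forward strand: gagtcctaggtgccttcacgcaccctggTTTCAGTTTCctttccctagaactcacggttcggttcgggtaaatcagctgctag
Cxcl10, chr5:92349048-92349139, reverse strand: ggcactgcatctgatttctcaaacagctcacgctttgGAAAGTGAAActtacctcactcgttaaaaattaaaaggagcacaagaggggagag
Gbp2, chr3:142620559-142620658, forward strand: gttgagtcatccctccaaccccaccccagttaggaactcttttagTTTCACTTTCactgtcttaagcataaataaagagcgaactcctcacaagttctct
Slfn5, chr11:82951902-82952001, forward strand: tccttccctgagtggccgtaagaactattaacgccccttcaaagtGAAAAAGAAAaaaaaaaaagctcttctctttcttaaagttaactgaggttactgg
The 3 overlapping matches in Isg15 make 1 continuous run. A promoter window of 250 bases before to 50 after the start was found in RefSeq for 102 of the 127 genes, and 50 of them (49%) held a match on either strand, against 340 of 8082 genes tested with a window (4.21%) and 3.99% of all windows. Genes with a match had a median log2 fold change of 0.24 (42 of 50 positive) and genes without one of 0.20 (40 of 52 positive). No match says only that these letters are not in the window, as in Irf7, Samhd1, Ifi35 and Ifi44.

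The ligands themselves were at or near the floor. Of 20 interferon genes in the list, 16 had 0 counts in all 14 libraries and 18 had at most 3 counts in every one. By library totals before scaling, 3 counts correspond to 1.29 CPM in the deepest library and 3.38 CPM in the shallowest. Ifnb1, the first type I interferon made by most cells, reached at most 5 counts in a library. Ifng, the type II interferon of T and NK cells, was the 1 ligand that passed the filter, at 84.7, 127, 120.2 and 167 CPM in abscopal and 61.3 to 206 (median 104) CPM in control libraries. All 4 abscopal values of Ifng lay inside the control range.

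Among receptors and signalling genes, 15 of 18 tested members had a positive log2 fold change. The list median was 0.20, or 0.13 without abscopal replicate 1, beside -0.01 over all genes tested. An unadjusted p under 0.05 was reached by 5 members, all higher in abscopal libraries, 27.8% beside 4.3% of all genes tested. Jak1, the kinase shared by the receptors and the most abundant member, was level, at 496, 635, 509.9 and 587 CPM against 471 to 674 (median 559) CPM. Ifngr1, a chain of the interferon gamma receptor, had 437 to 569.7 CPM against 418 to 637 CPM. Irf8, which drives monocyte and dendritic cell development, had 665, 645, 518 and 624 CPM against 401 to 608 (median 521) CPM, a log2 fold change of 0.26 (95% interval 0.01 to 0.51), with 3 of 4 abscopal libraries above all control libraries. Irf7, the amplifier of type I interferon production, had 89.7, 154, 104 and 102 CPM against 62.6 to 114 (median 75.7) CPM, a log2 fold change of 0.44 (95% interval 0.04 to 0.85) that was 0.25 without replicate 2. Stat2, a factor of the type I interferon complex, was chosen after its values were seen: 111, 118, 67.9 and 123 CPM in abscopal libraries against 58.6 to 94.9 (median 71.5) CPM, a log2 fold change of 0.47 (95% interval 0.14 to 0.79). Abscopal replicate 3 was within the control range for Stat2 and the other 3 libraries were above it.

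Antiviral effectors followed the same side. Of 44 tested members 34 had a positive log2 fold change, and the median was 0.22. An unadjusted p under 0.05 was reached by 8 members, 18.2%, all higher, beside 4.3% of all genes tested. Ifitm3, a membrane protein that blocks entry of enveloped viruses and the most abundant member, is on chromosome 7 (chr7:141009586-141010770, reverse strand on GRCm38). It was measured at 1007, 1005, 678 and 817 CPM in abscopal libraries and 341 to 715 (median 593) CPM in control libraries, a log2 fold change of 0.65 (95% interval 0.30 to 0.996), unadjusted p 0.000861. Replicate 3 lay inside the control range and the other 3 abscopal libraries lay above it. Without any single library the log2 fold change of Ifitm3 stayed between 0.57 and 0.75. Rsad2, which makes a chain-terminating nucleotide, had 335, 575, 711 and 527 CPM against 276 to 582 (median 371) CPM, a log2 fold change of 0.41 (95% interval 0.02 to 0.80) that was 0.24 without abscopal replicate 3. Isg15, the ubiquitin-like modifier, had 323, 316, 535 and 208 CPM in abscopal and 159.5 to 432 (median 353) CPM in control libraries, with replicate 3 above and the other 3 libraries inside the control range, and its log2 fold change of 0.13 (95% interval -0.38 to 0.63) turned to -0.17 without abscopal replicate 3. Outside the rule, chosen after their values were seen, were Ifitm2, Ifi35 and Ifi44. Ifitm2, a neighbour and close relative of Ifitm3, had a log2 fold change of 0.62 (95% interval 0.25 to 0.99), Ifi35, a partner of the factor Nmi, of 0.45 (95% interval 0.15 to 0.75), and Ifi44 of 0.92 (95% interval 0.24 to 1.60), which was 0.55 without abscopal replicate 1. Each of these had 3 of 4 abscopal libraries above every control library. Reads of Ifitm, Ifit, Oas, Gbp, Irgm, Schlafen and MHC genes can be shared between near-identical copies, so that values of single members of those families are uncertain.

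**Figure D2:**
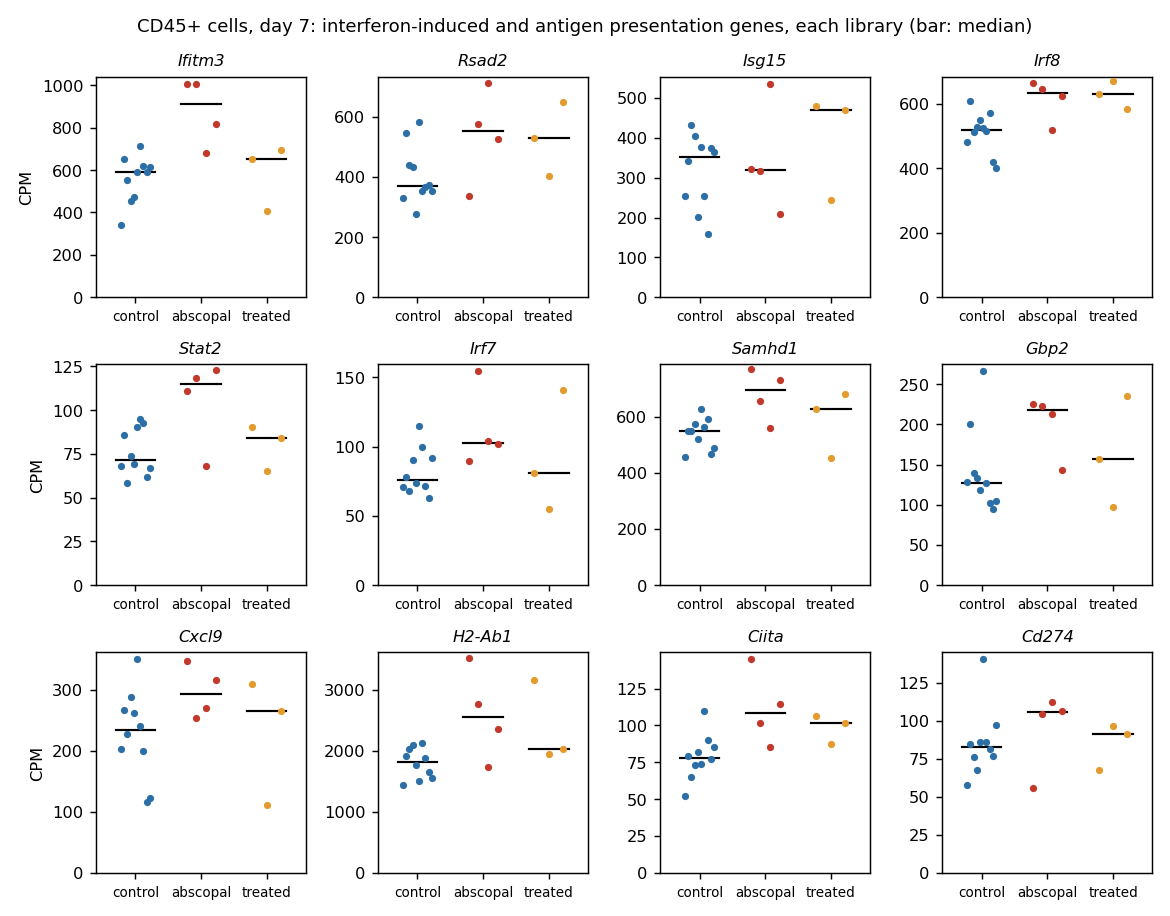
CPM of 12 interferon-induced, antigen presentation and checkpoint genes in each control (10), abscopal (4) and histotripsy-treated (3) library of CD45+ cells on day 7, with bars at group medians and axes from 0. Ifitm3 in abscopal libraries runs from 678 to 1007 CPM against 341 to 715 CPM in control libraries, and Isg15 overlaps between the groups.

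Nucleic acid sensors had 21 of 24 tested members with a positive log2 fold change and a median of 0.23. An unadjusted p under 0.05 was reached by 7 members, 29.2%, all higher, beside 4.3% of all genes tested. Samhd1, which degrades deoxynucleotides and limits DNA sensing, is the most abundant member and had 771, 657, 561 and 730.5 CPM against 458 to 629 (median 549) CPM, a log2 fold change of 0.34 (95% interval 0.07 to 0.60). Mndal and Ifi203, DNA-binding proteins of the p200 family, had 273 to 387 CPM against 226 to 359 CPM and 237 to 280.1 CPM against 226 to 394 CPM, and both overlapped with control. Tlr3, the receptor for double-stranded RNA in endosomes, had the largest log2 fold change of the list at 0.73 (95% interval 0.21 to 1.26) and was chosen after its values were seen. Abscopal replicate 1 carried much of it, with 43.5 CPM, and without that library the value was 0.27. Dhx58, a relative of the cytosolic RNA sensors, had 29.3, 19.3, 36.8 and 17.7 CPM against 12.4 to 22.7 (median 18.2) CPM, a log2 fold change of 0.54 (95% interval 0.11 to 0.96) that was 0.33 without abscopal replicate 3, and was likewise chosen after its values were seen.

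Interferon-induced GTPases, which attack membranes of intracellular parasites, had 12 of 14 positive values with a median of 0.21. An unadjusted p under 0.05 was reached by 3, 21.4%, all higher, beside 4.3% of all genes tested. Gbp2 had 226, 224, 214 and 143 CPM against 94.6 to 266 (median 128) CPM, a log2 fold change of 0.52 (95% interval 0.04 to 0.996), and 1 of 10 control libraries was above all 4 abscopal libraries. Irgm1, chosen after its values were seen, had 37.5, 29.8, 40.3 and 42.6 CPM against 21.3 to 36 (median 27.8) CPM, a log2 fold change of 0.44 (95% interval 0.07 to 0.81). Ifi47 had 178 to 231 CPM against 107 to 242 CPM, and Igtp, a relative of Irgm1, had 142 to 182 CPM against 86.6 to 204 CPM. The PARP, ubiquitin and TRIM list had 16 of 20 positive values with a median of 0.16. In it 2, 10%, had an unadjusted p under 0.05, both higher, beside 4.3% of all genes tested. Its most abundant member Trim30a, an inhibitor of Toll-like receptor signalling, had a log2 fold change of 0.26 (95% interval -0.02 to 0.54). Trim25, the ligase that activates RIG-I, had 190.2 to 203 CPM against 134 to 220.4 CPM, and Parp14, an ADP-ribosyltransferase, had 119 to 179 CPM against 94.5 to 163 CPM. Schlafen genes, of which several restrain T cell growth or viral translation, had 5 of 7 positive values, a median of 0.04 and 1 member with an unadjusted p under 0.05, Slfn5, at 195, 175, 169.7 and 195 CPM against 113 to 177 (median 131) CPM, a log2 fold change of 0.41 (95% interval 0.06 to 0.75). Slfn2, the most abundant member, had 327 to 401 CPM against 290.1 to 459 CPM, and Slfn4, a gene of myeloid cells, had 32.5 to 167 CPM against 47.3 to 339.6 CPM.

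Over the 6 lists together, each gene once, 103 of 127 tested members had a positive log2 fold change and 24 a negative one, with a median of 0.20 beside -0.01 over all genes tested. An unadjusted p under 0.05 with a higher level was reached by 26 members, 20.5% beside 4.3% of all genes tested, and with a lower level by 0, beside 3.15%. The median stayed between 0.17 and 0.21 when each library in turn was left out and under each other test, scaling and filter. The lists were chosen with results of these libraries known, and their members share inducers and, in part, reads, so the counts describe these libraries and are not independent evidence of a direction. Interferon-induced chemokines, a list that the 6 do not hold, had 5 positive and 5 negative values with a median of -0.01, which was -0.36 without abscopal replicate 3. Cxcl9, which draws T cells through CXCR3, had 348, 253, 270.2 and 316 CPM against 116 to 349.7 (median 234) CPM, a log2 fold change of 0.38 (95% interval -0.12 to 0.88). Cxcl10, its relative, had 85.1, 65.7, 176 and 81.6 CPM against 62.7 to 199 (median 88.3) CPM, so that 3 of 4 abscopal libraries lay below the control median. Ccl3, an attractant of monocytes and T cells, had 495, 1019, 1538 and 931 CPM against 805 to 2215 (median 1152) CPM. Ccl4 and Ccl5, which are related to it, had 968 to 1549 CPM against 936 to 1769.7 CPM and 885 to 1112 CPM against 613 to 1242 CPM. Ccl8, a monocyte attractant chosen after its values were seen, was the 1 chemokine with an unadjusted p under 0.05, with a log2 fold change of 0.83 (95% interval 0.19 to 1.48).

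Antigen presentation genes are given by class, and no difference between the classes was tested. MHC class I presentation, which shows peptides from inside the cell to CD8 T cells, had 11 positive and 11 negative values among 22 tested members, a median of -0.02, and 1 member in each direction with an unadjusted p under 0.05. B2m, the light chain of class I molecules, had 4591, 4980.3, 4624 and 4493 CPM against 3692 to 5173 (median 4365) CPM, and H2-K1, a heavy chain, 2197, 1470.2, 2212 and 1325 CPM against 1340.0 to 2365 (median 1909) CPM. All 4 values of B2m and 3 of 4 of H2-K1 lay inside the control range. Calr, a chaperone of class I folding, had 676 to 994 CPM against 643 to 869 CPM. Tapbp, which loads class I peptides and was chosen after its values were seen, was the member with a higher level at an unadjusted p under 0.05, with 546, 537, 320.4 and 587 CPM against 273 to 555 (median 380.5) CPM and a log2 fold change of 0.37 (95% interval 0.03 to 0.72). MHC class II presentation shows peptides taken up from outside to CD4 T cells and marks dendritic cells, macrophages and B cells. Its list had 8 of 11 positive values with a median of 0.51. An unadjusted p under 0.05 was reached by 7 members, 63.6%, all higher, beside 4.3% of all genes tested. H2-Ab1, the beta chain of I-A, is on chromosome 17 (chr17:34257689-34269419, forward strand). It had 3517, 2764, 1739.8 and 2351 CPM in abscopal and 1434 to 2129 (median 1822) CPM in control libraries, a log2 fold change of 0.53 (95% interval 0.18 to 0.87). H2-Aa, its partner, had 3426, 2423, 1805 and 1593 CPM against 1393 to 2253 (median 1694) CPM, a log2 fold change of 0.39 (95% interval 0.00 to 0.77). Replicate 1 was highest in both genes, and replicate 3 lay inside the control range, as did replicate 4 for H2-Aa. Without replicate 1 the log2 fold changes were 0.35 and 0.13. Ctss, the protease that frees the peptide groove, had 2763, 2578, 2316 and 2079 CPM against 1560.1 to 2240.2 (median 1975) CPM, a log2 fold change of 0.31 (95% interval 0.01 to 0.60). Chosen after their values were seen were Ciita, the master activator of class II genes, with 145, 102, 85.6 and 115 CPM against 52.2 to 109.8 (median 78.1) CPM and a log2 fold change of 0.51 (95% interval 0.19 to 0.83), and Cd74, the invariant chain, with a log2 fold change of 0.56 (95% interval 0.17 to 0.94). The list median was 0.24 without abscopal replicate 1 and 0.62 without replicate 3. With the replicate number as a block and without control replicates 5 to 10 it was 0.31.

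Monocyte and macrophage markers had 10 of 12 positive values with a median of 0.30, or 0.19 without abscopal replicate 1. An unadjusted p under 0.05 was reached by 3, 25%, all higher, beside 4.3% of all genes tested. Lyz2, lysozyme of myeloid cells, had 3068, 2454, 2411 and 1639 CPM against 1423 to 2656 (median 2107) CPM, a log2 fold change of 0.20 (95% interval -0.21 to 0.61), and Ccr2, the receptor that brings monocytes out of the marrow, had 932, 631, 470.3 and 595 CPM against 398 to 749 (median 484) CPM, a log2 fold change of 0.33 (95% interval -0.05 to 0.72). Ly6c2, a marker of inflammatory monocytes, had 492 to 735 CPM against 348 to 666 CPM. All 3 overlapped with control. Without abscopal replicate 1 the log2 fold changes of Lyz2 and Ccr2 were 0.06 and 0.12. Adgre1, which encodes the macrophage marker F4/80, was chosen after its values were seen and is on chromosome 17 (chr17:57358691-57483527, forward strand). It had 149.6, 109.6, 86.3 and 93.4 CPM in abscopal and 49.5 to 89.1 (median 67.5) CPM in control libraries, a log2 fold change of 0.69 (95% interval 0.33 to 1.04), unadjusted p 0.000534, and 3 of 4 abscopal libraries lay above every control library. Csf1r, the receptor for the macrophage growth factor, was likewise chosen after its values were seen. It had 532, 496, 356 and 512 CPM against 269.5 to 463 (median 359) CPM, a log2 fold change of 0.36 (95% interval 0.06 to 0.67).

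Genes of alternatively activated and lipid-associated macrophages were split, with 14 positive and 8 negative values and a median of 0.12. An unadjusted p under 0.05 was reached by 5, 22.7%, all higher, beside 4.3% of all genes tested. The list median was 0.03 without abscopal replicate 1, and lay between 0.03 and 0.25 when each library in turn was left out. Spp1, osteopontin, had 383, 618, 1153 and 632 CPM against 587 to 1403 (median 745) CPM, a log2 fold change of -0.34 (95% interval -0.90 to 0.22), -0.13 without abscopal replicate 1 and -0.70 without replicate 3. Lgals3, galectin-3, had 908 to 1463 CPM against 705 to 1599.8 CPM, and Ctsd, a lysosomal protease, had 532 to 860.0 CPM against 454 to 858 CPM. C1qb, a chain of the first complement component made by tissue macrophages, had 263, 257, 209 and 243 CPM against 78 to 237 (median 159.6) CPM, a log2 fold change of 0.56 (95% interval 0.17 to 0.95). Retnla, induced by IL-4 and IL-13, had 308, 68.4, 5.66 and 34.3 CPM against 3.30 to 50.9 (median 17.2) CPM, and 1 library decided its log2 fold change, which was 2.25 (95% interval 0.99 to 3.51) with all libraries and 0.62 without abscopal replicate 1. C1qb and Retnla were chosen after their values were seen.

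Conventional dendritic cell markers had 9 of 13 positive values with a median of 0.35. An unadjusted p under 0.05 was reached by 4, 30.8%, all higher, beside 4.3% of all genes tested. Itgax, which encodes CD11c, had 236, 235, 204 and 288 CPM against 144 to 238 (median 202) CPM, a log2 fold change of 0.29 (95% interval 0.02 to 0.57) that was 0.19 without abscopal replicate 4. Sirpa, the receptor for CD47, had 100.5 to 218 CPM against 94.1 to 215 CPM, and Ccr7, which guides dendritic cells to lymph nodes, had 63.8 to 135 CPM against 65.5 to 164 CPM. Batf3, the factor that cross-presenting dendritic cells need, was chosen after its values were seen and had 32.9, 14.9, 14.1 and 17.7 CPM against 6.60 to 18.5 (median 12) CPM, with a log2 fold change of 0.77 (95% interval 0.26 to 1.27) that was 0.34 without abscopal replicate 1. The list median was 0.10 without that library. Plasmacytoid dendritic cell markers had 6 positive and 3 negative values with a median of 0.06. An unadjusted p under 0.05 was reached by 2, 22.2%, both lower, beside 3.15% of all genes tested. Bst2 had 291 to 393 CPM against 189 to 446 CPM, Tcf4, the factor of the lineage, had 144 to 157 CPM against 108 to 189 CPM, and Runx2 had 31.6 to 56.7 CPM against 40.7 to 68.3 CPM.

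T cell markers had 0 positive values among 16 tested members, with a median of -0.22, and 0 had an unadjusted p under 0.05. Cd8a, which marks cytotoxic T cells, had 103, 214, 228 and 199.8 CPM in abscopal and 117 to 362 (median 218) CPM in control libraries, a log2 fold change of -0.29 (95% interval -0.84 to 0.27). Replicate 1 lay below every control library and the other 3 lay inside the control range, and without replicate 1 the log2 fold change was -0.07. Cd4 had 20.6, 12.3, 15.6 and 15.4 CPM against 9.32 to 25.3 (median 17.1) CPM. Trac, the constant chain of the alpha beta receptor, had 281, 543, 335 and 631 CPM against 239 to 803 (median 481) CPM, a log2 fold change of -0.20 (95% interval -0.76 to 0.36) that lay between -0.42 and -0.03 when each library in turn was left out, lowest without abscopal replicate 4 and highest without abscopal replicate 1, and the list median was -0.05 without abscopal replicate 1. Trbc2, a constant chain of the beta receptor, had 326, 544, 429 and 527 CPM against 318 to 797 (median 586) CPM, a log2 fold change of -0.31 (95% interval -0.75 to 0.12) that was -0.18 without abscopal replicate 1, and Lck, the kinase of the receptor, had 203 to 411 CPM against 189.7 to 420.0 CPM. Cytotoxic effectors had 4 positive and 8 negative values with a median of -0.05, and 0 had an unadjusted p under 0.05. That median turned to 0.13 without abscopal replicate 1. With the replicate number as a block and without control replicates 5 to 10 it was -0.35. Gzmb, granzyme B, spread widely, with 47.1, 84.2, 207 and 61.5 CPM in abscopal libraries, of which replicate 3 was above and replicates 1 and 4 below every control library, against 71.5 to 175 (median 151) CPM. Its log2 fold change was -0.46 (95% interval -1.14 to 0.21), -1.12 without replicate 3 and -0.21 without replicate 1. Srgn, the proteoglycan of the granules, had 577 to 1122 CPM against 597 to 1383 CPM, Gzma, granzyme A, 299 to 551 CPM against 202 to 708 CPM, and Nkg7 305 to 540.2 CPM against 237 to 743 CPM. NK cell markers had 7 positive and 3 negative values with a median of 0.07. Tyrobp, an adaptor that myeloid cells share, had 720.0 to 1004 CPM against 530.3 to 929.8 CPM, and the receptors Klrk1 and Klrd1 had 115 to 147 CPM against 72.6 to 160.1 CPM and 40.2 to 111 CPM against 56.1 to 165 CPM. Xcl1, the chemokine with which NK and CD8 T cells draw dendritic cells, was the 1 member with an unadjusted p under 0.05. It had 38.9, 28.9, 46.7 and 35.5 CPM against 30.3 to 92.7 (median 60.9) CPM and a log2 fold change of -0.69 (95% interval -1.17 to -0.21), and it was chosen after its values were seen.

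Checkpoint and regulatory T cell genes had 4 positive and 12 negative values with a median of -0.25, or -0.12 without abscopal replicate 1, and 4 members, 25%, had an unadjusted p under 0.05, all lower, beside 3.15% of all genes tested. Ikzf2, Helios of regulatory T cells, had 146, 222, 194 and 236 CPM against 178 to 336 (median 232) CPM, a log2 fold change of -0.26 (95% interval -0.59 to 0.07). Vsir, the checkpoint VISTA of myeloid cells, had 189 to 315 CPM against 169 to 282 CPM, and Icos, a costimulator of T cells, had 129 to 216 CPM against 127 to 362 CPM. Il2ra, CD25 of regulatory and activated T cells, had 34.8, 30.7, 24.8 and 26 CPM against 29.8 to 57.5 (median 38.8) CPM, a log2 fold change of -0.51 (95% interval -0.86 to -0.15), and Tnfrsf9, the costimulatory receptor 4-1BB, had 67.3, 122, 121 and 103 CPM against 92.9 to 206 (median 135) CPM, a log2 fold change of -0.44 (95% interval -0.85 to -0.04). Without abscopal replicate 1 the log2 fold changes of Ikzf2 and Tnfrsf9 were -0.13 and -0.27. Il2ra and Tnfrsf9 were chosen after their values were seen, and the T cell markers above lay on the same side. Cd274, which encodes PD-L1, had 55.8, 104, 112 and 106 CPM against 57.6 to 141 (median 82.9) CPM, a log2 fold change of 0.13 (95% interval -0.27 to 0.54) that lay between 0.02 and 0.34 when each library in turn was left out, with replicate 1 below every control library.

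Neutrophil markers had lower measured values in abscopal libraries, and none was called. All 9 tested members of 11 had a negative log2 fold change, with a median of -1.01. An unadjusted p under 0.05 was reached by 7, 77.8%, beside 3.15% of all genes tested. S100a8 and S100a9 encode the subunits of calprotectin. S100a8 had 203, 1109.8, 1158 and 787 CPM in abscopal and 799 to 2773 (median 1524) CPM in control libraries, a log2 fold change of -1.01 (95% interval -1.88 to -0.15). S100a9 had 114, 842, 738 and 439 CPM against 497 to 1893 (median 921) CPM, a log2 fold change of -0.95 (95% interval -1.90 to -0.01) that was -0.61 without abscopal replicate 1. In each, replicates 1 and 4 were below every control library and replicates 2 and 3 lay inside the control range. Retnlg, a secreted protein of granulocytes, had 102, 68.4, 67.2 and 41.4 CPM against 57.6 to 229.8 (median 95.9) CPM, a log2 fold change of -0.77 (95% interval -1.54 to -0.01). The list median was -0.69 without abscopal replicate 1. With the replicate number as a block and without control replicates 5 to 10 it was -0.54. Ngp and Camp, which are made by immature neutrophils, were chosen after their values were seen. They had at most 4.95 CPM in abscopal libraries, and their highest single control values were 106 CPM and 46.2 CPM.

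Inflammatory cytokines and NF-kB feedback genes, which neutrophils and monocytes express strongly, had 4 positive and 16 negative values with a median of -0.28. In each direction 2 members, 10%, had an unadjusted p under 0.05, beside 4.3% higher and 3.15% lower of all genes tested. Nfkbia, the inhibitor that NF-kB induces, had 7100.3, 7445, 12288 and 6748 CPM against 6849 to 15244 (median 9352) CPM, a log2 fold change of -0.27 (95% interval -0.72 to 0.18). Cxcl2, an attractant of neutrophils, had 1451, 2444, 7576 and 1904 CPM against 1971 to 10855 (median 4341) CPM, a log2 fold change of -0.65 (95% interval -1.54 to 0.24). In both, replicate 3 was far above the other 3 abscopal libraries, and without it the log2 fold changes were -0.51 and -1.45. The list median was -0.58 without replicate 3 and -0.16 without replicate 1. Il1b, the most studied inflammasome product, had 3809, 4373, 4430.0 and 2910.2 CPM against 2809 to 6172 (median 3863) CPM. The next 3 genes were chosen after their values were seen. Cxcl3, a neighbour of Cxcl2 with the same receptor, had 0.915, 7.01, 59.4 and 17.7 CPM against 9.74 to 278 (median 53.7) CPM, a log2 fold change of -1.99 (95% interval -3.63 to -0.35) that was -3.65 without abscopal replicate 3. Il18, which primes interferon gamma production, had 34.8, 27.2, 24 and 17.7 CPM against 11.7 to 29.3 (median 14.8) CPM, a log2 fold change of 0.68 (95% interval 0.23 to 1.13). Il12b, the shared chain of IL-12 and IL-23 made by dendritic cells and macrophages, is on chromosome 11 (chr11:44400063-44414033, forward strand) and had 30.2, 28.9, 21.2 and 21.3 CPM in abscopal and 10.7 to 20.6 (median 15) CPM in control libraries. All 4 abscopal values of Il12b lay above all 10 control values, as they did for 0.157% of the genes tested, and its log2 fold change was 0.74 (95% interval 0.35 to 1.14).

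B cell genes parted into 2 groups. Of 10 tested markers 8 had a negative log2 fold change, and the median was -1.03. An unadjusted p under 0.05 was reached by 6 (60%) with a lower level, beside 3.15% of all genes tested. With a higher level it was reached by 1 (10%), beside 4.3%. Igkc, Ighm and Jchain are the most abundant members. Ighd, the heavy chain of naive B cells, was chosen after its values were seen, as was Pax5, the factor that keeps B cell identity. Ighd had 22.4, 36.8, 13.4 and 16.5 CPM in abscopal and 24.8 to 132 (median 64.6) CPM in control libraries, a log2 fold change of -1.65 (95% interval -2.66 to -0.64), with 3 of 4 abscopal libraries below every control library. Pax5 had 6.41, 12.3, 8.49 and 7.09 CPM against 7.58 to 59.3 (median 28.1) CPM, a log2 fold change of -1.64 (95% interval -2.64 to -0.64). Ighm, the heavy chain of IgM, had 410.5, 202, 151 and 156 CPM against 146 to 623 (median 274) CPM, a log2 fold change of -0.37 (95% interval -1.10 to 0.36) that lay between -0.82 and -0.19 when each library in turn was left out, the lowest without abscopal replicate 1 and the highest without control replicate 9. Genes of antibody-secreting plasma cells lay above every control library in abscopal replicate 1 and, for Jchain and Igha, also in replicate 2. Jchain, which joins IgA and IgM into polymers, had 384, 76.3, 38.2 and 26 CPM against 8.63 to 65.6 (median 49.8) CPM. Igkc, the kappa light chain, had 1308, 362, 163 and 157 CPM against 131 to 572 (median 284) CPM, and Igha, the IgA heavy chain, chosen after its values were seen, had 2136, 545, 153 and 144 CPM against 40.8 to 353 (median 194) CPM. Abscopal replicate 1 decided all 3: with it the log2 fold changes were 1.63, 0.65 and 1.96, and without it 0.10, -0.49 and 0.55. Without it the B cell list median was -0.87.

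Erythroid genes, a sign of blood in the sample, had 4 of 4 tested values below 0 with a median of -1.18, which was -0.76 without abscopal replicate 1 and -1.95 without replicate 4. Hbb-bs, adult beta globin, had 43.9, 141, 408 and 807 CPM against 213 to 1241 (median 808) CPM, a log2 fold change of -1.13 (95% interval -2.50 to 0.25) (-0.74 without abscopal replicate 1 and -1.95 without replicate 4), with replicates 1 and 2 below every control library. Hbb-bt and Hba-a1, further globin genes, had 16.9 to 241 CPM against 79 to 375 CPM and 7.78 to 154 CPM against 42.2 to 227 CPM. The globin genes are near-identical in pairs and their values are uncertain one by one. Ppbp, a platelet chemokine, had 9.61, 2.63, 41 and 15.4 CPM against 4.33 to 105 (median 58.5) CPM, a log2 fold change of -1.52 (95% interval -2.82 to -0.22) that was -2.48 without abscopal replicate 3. Pf4, a platelet factor that macrophages also express, had 51.7 to 209 CPM against 29.2 to 284 CPM. Summed over the list, neutrophil markers ran from 480 to 2179 CPM in abscopal and 1559 to 5141 CPM in control libraries, and erythroid genes from 77.3 to 1318 CPM and 379.9 to 2004 CPM. In both lists 2 of 4 abscopal libraries lay below every control library, and their part in the differences of the other lists was not tested. Melanoma markers had 5 of 6 positive values and a median of 0.35, which was -0.48 without abscopal replicate 3. Dct, an enzyme of pigment synthesis, had 71.8, 93.8, 279 and 213 CPM against 66 to 265 (median 97) CPM, and Pmel, the pigment fibril protein, had 16, 7.89, 61.5 and 7.09 CPM against 3.23 to 32.4 (median 14.6) CPM. Mitf, a melanocyte factor that mast cells and macrophages also use, had 36.8 to 63.6 CPM against 30.9 to 66.3 CPM. Kit, the 1 tested mast cell marker, had 9.46 to 21.9 CPM against 9.90 to 20.1 CPM, and Fn1, the 1 tested fibroblast marker, 448 to 962 CPM against 388 to 926 CPM.

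**Figure D3:**
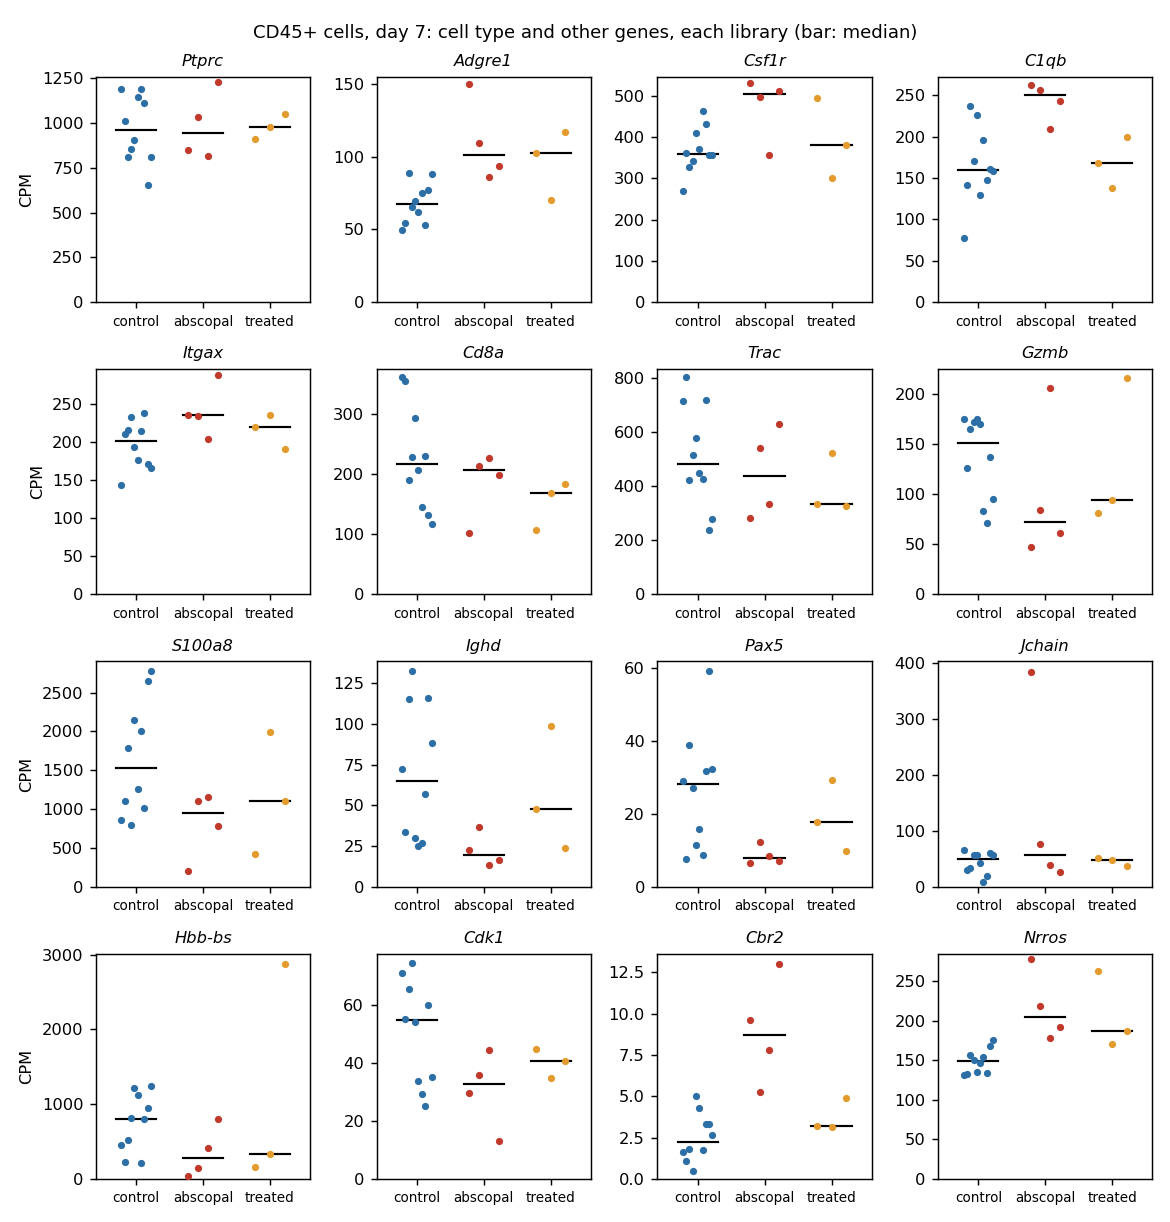
CPM of 16 cell type and other genes in each control (10), abscopal (4) and histotripsy-treated (3) library of CD45+ cells on day 7, with bars at group medians and axes from 0. Adgre1 lies higher in abscopal libraries, Ighd and Pax5 lower, and Jchain is high in 1 abscopal library at 384 CPM.

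All 28 tested cell cycle genes had a negative log2 fold change, with a median of -0.30, and 6, 21.4%, had an unadjusted p under 0.05, beside 3.15% of all genes tested. Top2a, the topoisomerase of dividing cells and the most abundant member, had 254, 301, 209 and 374 CPM against 198 to 544 (median 337) CPM, a log2 fold change of -0.26 (95% interval -0.74 to 0.21) that was -0.15 without abscopal replicate 3 and -0.43 without replicate 4. Birc5, survivin, had 125 to 162 CPM against 78.2 to 284 CPM, and Pcna, the replication clamp, had 140.5 to 163 CPM against 125 to 192 CPM, so that both overlapped with control. Cdk1, the mitotic kinase, had 29.7, 35.9, 44.6 and 13 CPM against 25.3 to 74.6 (median 54.7) CPM, a log2 fold change of -0.68 (95% interval -1.26 to -0.11), and Ccnb2, a cyclin that activates it, had 16, 19.3, 21.2 and 20.1 CPM against 19.3 to 48.4 (median 29) CPM, a log2 fold change of -0.70 (95% interval -1.15 to -0.25). Cdk1 and Ccnb2 were chosen after their values were seen. The list median stayed between -0.37 and -0.24 without each library in turn. With the replicate number as a block and without control replicates 5 to 10 it was -0.60. Cell cycle genes are known to vary together, so that 28 values of 1 sign are not 28 independent observations.

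Glycolysis and hypoxia genes had 8 positive and 17 negative values with a median of -0.08, and 0 had an unadjusted p under 0.05. Ldha, lactate dehydrogenase, had 1303, 1822, 1467 and 1589.8 CPM against 1491 to 1977 (median 1599) CPM, and Hilpda, a lipid droplet protein induced by hypoxia, had 705, 1233, 2023 and 1031 CPM against 1044 to 2401 (median 1484) CPM, a log2 fold change of -0.37 (95% interval -0.87 to 0.13), -0.17 without abscopal replicate 1 and -0.71 without replicate 3. Hmox1, heme oxygenase, had 669 to 1825 CPM against 574 to 1679.7 CPM. Slc7a11, the cystine transporter that guards against ferroptosis, had 74.6, 92, 323 and 108 CPM against 70.4 to 484 (median 177) CPM, with replicate 3 at more than the other 3 abscopal libraries together. Immediate early and heat shock genes had 12 positive and 10 negative values with a median of 0.04 and 0 with an unadjusted p under 0.05. Hsp90aa1, a chaperone, had 1707, 2016, 2326 and 2622 CPM against 1357 to 2338 (median 2016) CPM, a log2 fold change of 0.19 (95% interval -0.18 to 0.57). That value was 0.09 without abscopal replicate 4 and 0.29 without abscopal replicate 1. Junb, an AP-1 subunit, had 1209 to 1939.9 CPM against 1157 to 1902 CPM, and Ier3, an early survival gene, had 1138 to 2008 CPM against 896 to 2813 CPM. Hmgb1, the nuclear protein that dying cells release, had 93.8, 124, 79.9 and 122 CPM against 74.6 to 149 (median 119.6) CPM, and all abscopal values lay inside the control range.

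**Figure D4:**
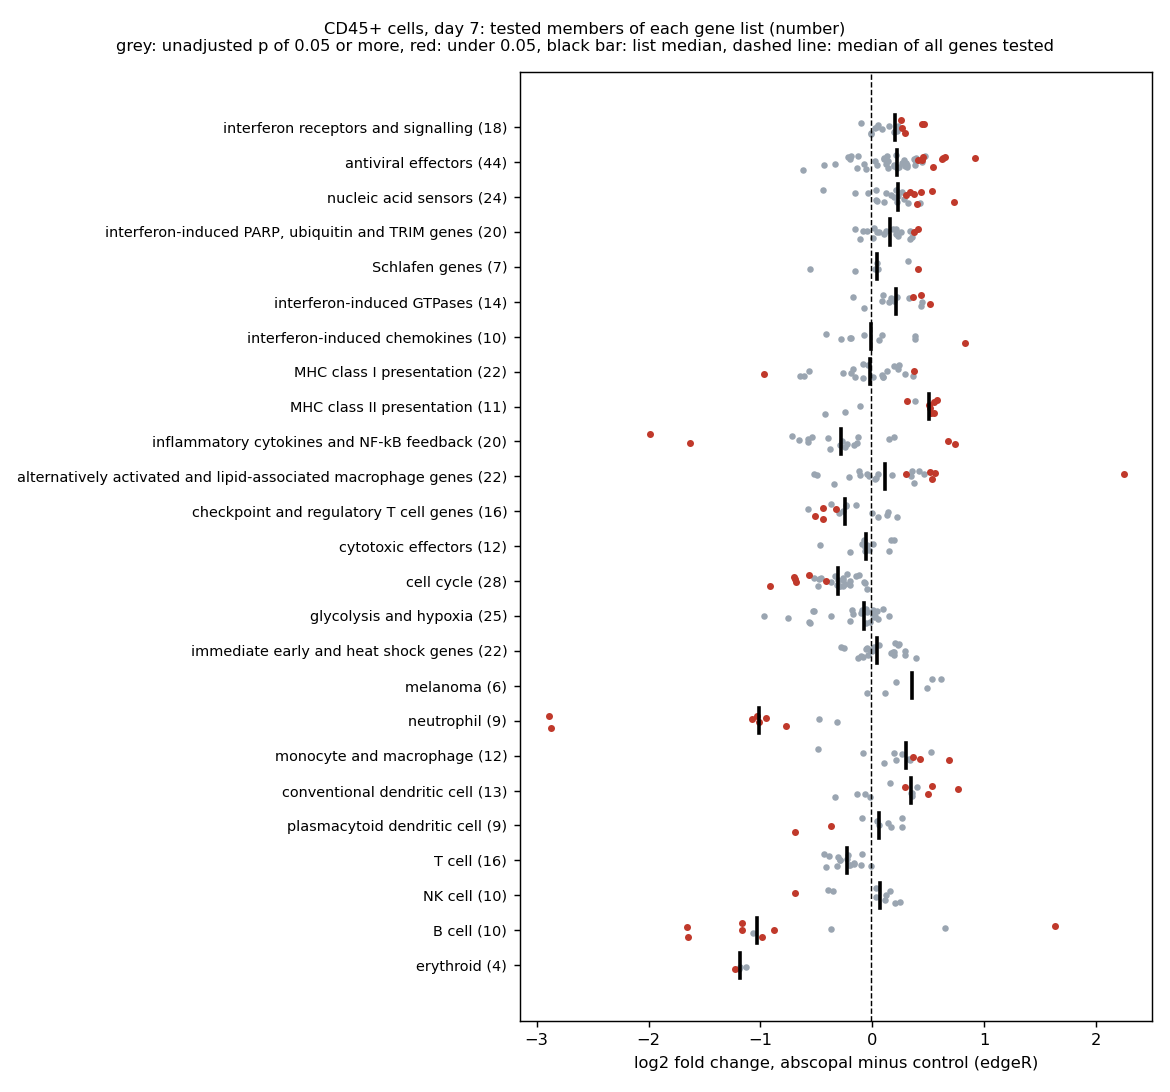
Log2 fold change, abscopal minus control, of every tested member of the lists with 4 or more tested genes; points are genes, red where the unadjusted p is under 0.05, black bars are list medians, and the dashed line is the median of all genes tested at -0.01. MHC class II, dendritic cell, macrophage and 6 interferon-induced lists have medians above 0, and neutrophil, B cell, erythroid and cell cycle lists medians below 0.

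In 33 of all genes tested the 4 abscopal and 10 control values did not overlap, 17 above (0.157% of the genes tested) and 16 below (0.148%). The genes of this paragraph were chosen after their values were seen. Cbr2, a carbonyl reductase on chromosome 11 (chr11:120729489-120732114, reverse strand), had the smallest p of all genes, 0.000111 unadjusted and 0.494 adjusted in edgeR's test. It had 9.61, 5.26, 7.78 and 13 CPM in abscopal and 0.469 to 5.04 (median 2.22) CPM in control libraries, a log2 fold change of 1.74 (95% interval 0.97 to 2.51), at levels close to the floor of 3 counts. Cbr2 did not pass the filter in the fit of the 2 groups only or without abscopal replicate 1, 3 or 4, so it was tested only through the libraries in which it was high, and its p and its lack of overlap support nothing. Nrros, which tethers latent TGF-beta on macrophages and microglia, is on chromosome 16 (chr16:32142785-32165594, reverse strand) and had 277, 218, 178 and 191 CPM against 132 to 175 (median 148) CPM, a log2 fold change of 0.55 (95% interval 0.27 to 0.82). Cebpa, a factor of the myeloid lineage on chromosome 7 (chr7:35119293-35121928, forward strand), had 78.2, 76.3, 67.2 and 63.8 CPM against 21.5 to 58.6 (median 45.1) CPM, a log2 fold change of 0.68 (95% interval 0.32 to 1.05). Every abscopal value of the 3 genes lay above every control value. On the other side, Slc35g1, a solute carrier, had 6.41, 2.63, 6.36 and 8.27 CPM against 8.80 to 24.4 (median 12.8) CPM, a log2 fold change of -1.24 (95% interval -1.85 to -0.63), and Chst3, a sulfotransferase of chondroitin, had 0.915, 0.877, 0 and 1.18 CPM against 1.43 to 7.99 (median 5.05) CPM. All 4 abscopal values of Chst3 were under the floor of 3 counts, so no fold is given, and the gene did not pass the filter in the fit of the 2 groups only. Map11, a subunit of a trafficking complex, had 70.01, 58.7, 54.5 and 59.1 CPM against 33.3 to 54.1 (median 41.8) CPM, a log2 fold change of 0.54 (95% interval 0.27 to 0.81). Kdr, a receptor for VEGF and a marker of endothelium that the rule for named genes also picked, had 38.9, 39.4, 41.7 and 34.3 CPM against 18 to 34.1 (median 26.6) CPM, a log2 fold change of 0.57 (95% interval 0.17 to 0.96), also without overlap, whereas Pecam1, the second tested endothelial marker, had 28.4 to 46.5 CPM against 35.7 to 64.6 CPM, and the summed endothelial markers ran from 71.8 to 91.2 CPM in abscopal and 55.8 to 89.9 CPM in control libraries. S1pr1, the receptor by which lymphocytes leave tissue, had 17.8, 12.3, 18.4 and 20.1 CPM against 16.8 to 58.6 (median 35.2) CPM, a log2 fold change of -1.06 (95% interval -1.63 to -0.48), with 1 of 4 abscopal libraries below every control library. Fgfr1, a growth factor receptor, had 38.9, 18.4, 12 and 7.09 CPM against 3.78 to 11.4 (median 6.58) CPM, a log2 fold change of 1.56 (95% interval 0.83 to 2.28) that was 0.87 without abscopal replicate 1.

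CD45+ cells of abscopal tumors were next set against those of the 3 histotripsy-treated tumors of the same day, to ask whether the untreated tumor differed from the ablated one. No gene was called in edgeR's test, 0% of 10817, with 291 genes at an unadjusted p under 0.05, 2.69%, of which 1.44% were higher and 1.25% lower in abscopal libraries, and DESeq2 called 0 with 256. Without the filter on low counts edgeR called 17 genes, 6 higher and 11 lower, in the fit whose prior degrees of freedom were infinite. The 6 interferon-induced lists had a median log2 fold change, abscopal minus treated, of 0.06, with 83 of 127 positive and 1 member with an unadjusted p under 0.05. Ifitm3 had 652, 409 and 696 CPM in treated libraries, and its log2 fold change, abscopal minus treated, was 0.58 (95% interval 0.11 to 1.05). H2-Ab1 had 3157, 1945 and 2029.6 CPM in treated libraries and a log2 fold change of 0.13 (95% interval -0.33 to 0.58). NK cell markers had 10 of 10 negative values with a median of -0.35, and erythroid genes 4 of 4 with a median of -1.74, where the treated library with the highest Hbb-bs reached 2874 CPM. With 3 treated libraries the median half-width of the unadjusted 95% interval was 0.54. A call after adjustment needs a larger difference still, so 0 calls do not show that the tumors are alike.

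Histotripsy-treated and abscopal tumors were each compared with the same 10 control libraries, so the values that follow share them and are given side by side only. Treated minus control, 0 genes were called, 0% of 10817, with 341 at an unadjusted p under 0.05, 3.15%, of which 1.47% were higher and 1.68% lower in treated libraries. The 6 interferon-induced lists had a median of 0.13 in treated tumors beside 0.20 in abscopal tumors, MHC class II genes 0.36 beside 0.51, conventional dendritic cell markers 0.44 beside 0.35, neutrophil markers -0.55 beside -1.01, T cell markers -0.29 beside -0.22, and cell cycle genes -0.28 beside -0.30. B cell markers had -0.29 beside -1.03, and erythroid genes 0.59 beside -1.18. Interferon-induced chemokines had 0.25 beside -0.01, and NK cell markers 0.25 beside 0.07.

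The same contrast on day 3, with 7 abscopal and 4 control CD45+ libraries, called 0 of 10264 genes, with 796, 7.76%, at an unadjusted p under 0.05, 4.94% higher and 2.82% lower. A test of the difference between the days, day 7 minus day 3, called 0 of 11251 genes, with 729, 6.48%, at an unadjusted p under 0.05, 2.76% higher and 3.72% lower on day 7, and a smallest adjusted p of 0.0636 in edgeR's test, for Gpr137c. The count was 76 without the filter on low counts, 13 higher and 63 lower, 1 under scaling by library totals, and 1 without abscopal replicate 2 or 5 of day 3 or abscopal replicate 2 of day 7. The 6 interferon-induced lists had a median of 0.17 on day 3 and 0.20 on day 7, and the difference between the days had a median of 0.05, with 73 of 127 positive. MHC class II genes had a median of -0.18 on day 3 and 0.51 on day 7. The difference of their effects had a median of 0.56, and 7 of 11 members had an unadjusted p under 0.05, all higher on day 7, beside 2.76% of all genes tested. For H2-Ab1 the difference between the days was 0.64 (95% interval 0.06 to 1.22) on the log2 scale and for Ciita 0.70 (95% interval 0.05 to 1.34). Plasmacytoid dendritic cell markers had a median of -0.75 on day 3 and 0.06 on day 7, and their difference a median of 0.69 with 5 of 9 at an unadjusted p under 0.05. Neutrophil markers had 0.09 and -1.01, and their difference a median of -1.16, with 2 of 11 at an unadjusted p under 0.05. B cell markers had 0.15 and -1.03, with a difference of -1.18 in the median. On day 3 the abscopal libraries also had more melanoma marker RNA, with a list median of 2.24, and what part this had in the differences between the days was not tested.

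CD45- cells of the same day and contrast, 4 abscopal and 11 control libraries, held 32 called genes of 10996, 29 higher (0.264%) and 3 lower (0.0273%), and 9.56% had an unadjusted p under 0.05, 5.82% higher and 3.74% lower. The 6 interferon-induced lists had a median of 0.48 there, with 88 of 96 tested members positive and 27 at an unadjusted p under 0.05, all higher, beside 5.82% of all genes tested in that fraction. MHC class I genes had a median of 0.65 in CD45- and -0.02 in CD45+ cells, and MHC class II genes 0.72 and 0.51. Fibroblast markers were also higher in the CD45- abscopal libraries, with a median of 2.81 and 8 of 8 positive, and so were endothelial markers, with a median of 2.18 and 3 of 3 positive. The part of these cells in the CD45- values was not tested, and the fractions were fitted apart, so that no difference between them was tested.

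**Figure D5:**
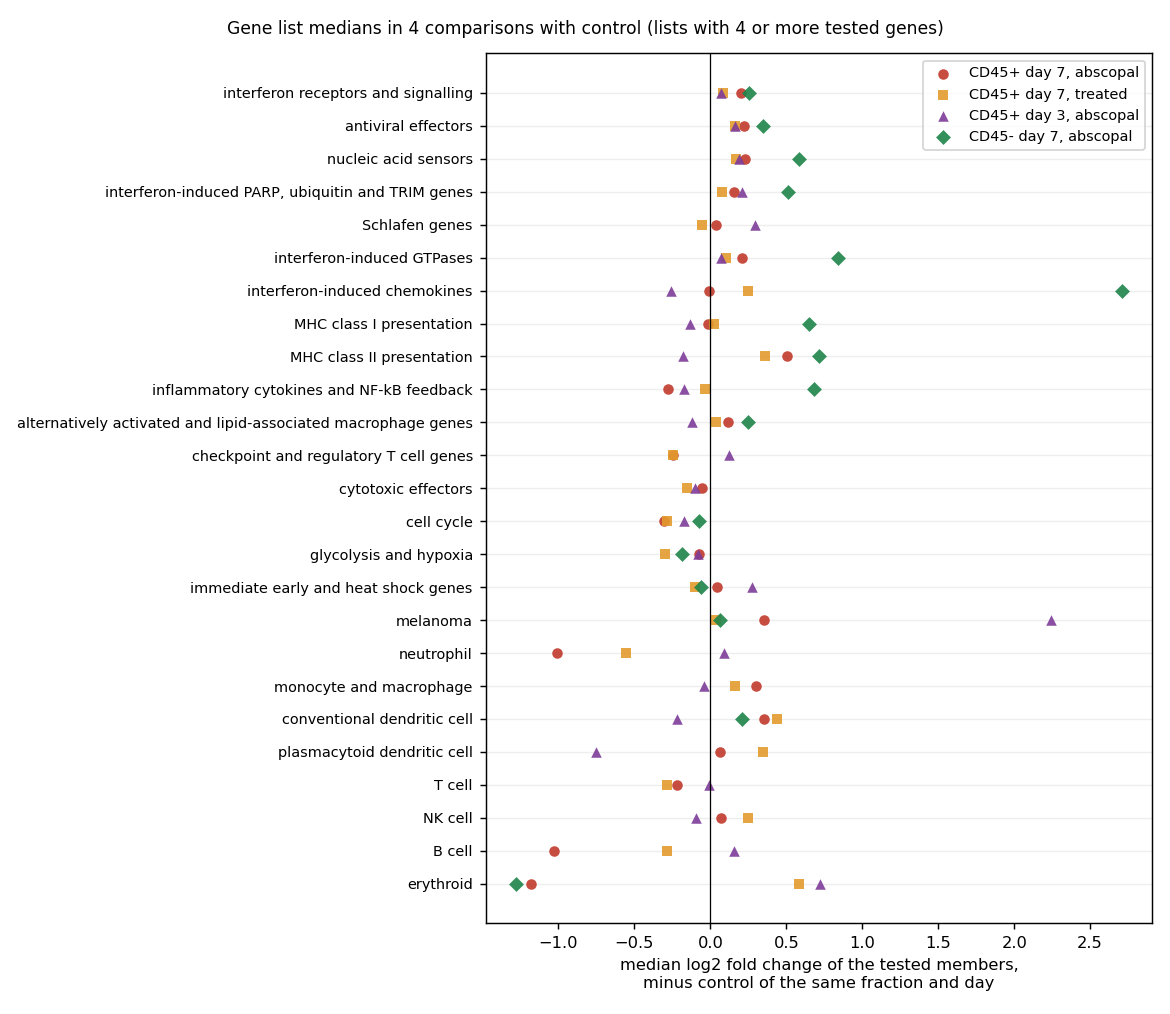
Median log2 fold change of the tested members of each list with 4 or more tested genes in 4 comparisons with control: CD45+ abscopal on day 7 (red), CD45+ histotripsy-treated on day 7 (orange), CD45+ abscopal on day 3 (purple) and CD45- abscopal on day 7 (green). The red and orange points share their control libraries, and MHC class II genes are at 0.51 in abscopal CD45+ cells on day 7 and -0.18 on day 3.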

How the data were processed

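RNA of sorted CD45+ and CD45- cells of B16F10 tumors had been turned into libraries with the QuantSeq 3′ kit with unique molecular identifiers. The authors trimmed reads with Trim Galore 0.5.0, aligned them to GRCm38 with STAR 2.6.0, collapsed identifiers and counted reads per gene with featureCounts, and the deposited tables hold raw counts of whole numbers per gene and library. The strand setting of the counting is not given in the sources used here, so reads of overlapping and antisense genes may not be told apart. The 1 line without a name held the column total (100% of the sum of the others) and was left out, and 120 lines shared a symbol and were kept as they stood. Every column matched the label of 1 sample (0 without).

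Genes were kept by the filterByExpr rule (minimum count 10, minimum total 15), libraries scaled by the trimmed mean of M-values, and genes tested with edgeR 4.0.16 in R 4.3.3 by the quasi-likelihood test, in 1 fit of the 3 CD45+ day 7 groups, two-sided, with Benjamini-Hochberg adjustment at 0.05. Day 3 and day 7 CD45+ libraries shared a fit for the difference between the days, and CD45- cells had their own. The 95% intervals come from the same fits. Library comparisons found no duplicates, since the smallest chi-square per degree of freedom within a group was 2.35. Principal components used 500 genes on log10(CPM + 1). The edgeR fit of the CD45+ day 7 groups was also run on simulated counts, and the outcome is not reported here. DESeq2 1.42.0, limma-voom 3.58.1, scaling by totals, no filter, only the 2 groups, a replicate block and leaving out each library were tried. The replicate block also left out control replicates 5 to 10, whose numbers no other group had. Labels do not say which libraries share a mouse, so p-values measure the spread between these samples. The floor in single libraries covers counting error only, and the 95% intervals include the spread between libraries. Total counts per library set the precision of low genes, with 3 counts as the floor.

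The 17 pathway and 16 marker lists, their members and the groups compared were chosen with earlier results of these data known. Genes named were the 3 most abundant tested members of each list, 14 fixed genes of the question (such as Cd8a, Ifng, Cxcl9 and Cd274), and others that the text marks as chosen after their values were seen. Some genes of the lists and of the rule are counted but not reported here. Positions come from GENCODE M21 and promoters from RefSeq, both on GRCm38.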

Additional observations from a re-analysis of the deposited data

Results flagged for a closer look

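In 260 sets of library values (each gene printed by library or by range, and the first 3 principal components, in abscopal and in control libraries), the gap of the highest or lowest library to the next was set against the range of its group by Dixon's 95% limits. A library passed the limit in 14 of them (5.38%), where chance gives about 1 in 20.

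Abscopal replicate 3 passed the limit as the highest of its group in 4 genes. Nfkbia was at 12288 CPM there against 6748 to 7445 CPM in the other 3 abscopal libraries, and Cxcl2 at 7576 CPM against 1451 to 2444 CPM. Pmel was at 61.5 CPM against 7.09 to 16 CPM, and Slc7a11 at 323 CPM against 74.6 to 108 CPM. Abscopal replicate 1 was highest for Jchain, at 384 CPM against 26 to 76.3 CPM, and lowest for Cd274, at 55.8 CPM against 104 to 112 CPM. Abscopal replicate 4 was lowest for Gbp2, at 143 CPM against 214 to 226 CPM.

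Among control libraries, replicate 6 passed the limit as the highest for 4 genes. Cd274 was at 141 CPM there against 57.6 to 96.8 CPM in the other 9, Cxcl10 at 199 CPM against 62.7 to 115 CPM, Ifi203 at 394 CPM against 226 to 312 CPM, and the melanocyte gene Dct at 265 CPM against 66 to 148 CPM. Control replicate 8 was highest for Ikzf2, at 336 CPM against 178 to 255 CPM, and lowest on PC3, at -19.3 against -3.97 to 2.49. Control replicate 10 was highest for Slfn4, at 339.6 CPM against 47.3 to 196 CPM.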

How the results depend on the processing

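The count of 0 called genes, abscopal against control, was also 0 under DESeq2, limma-voom, scaling by totals, a fit of the 2 groups only, the replicate block and without each of the 14 libraries (0 to 0). Without the filter on low counts it was 102 (33 higher, 69 lower) of 29636 genes, and for abscopal against treated tumors 17, and for the difference between the days 76. In the unfiltered day 7 fit the prior degrees of freedom were infinite, against 8.67 with the filter. A gene's own spread thus did not enter its test there. For the unfiltered fit of both days this value was not recorded. Of the 102 genes 98 passed the filter. Abscopal against treated was 0 without each library in turn. The difference between the days had 1 call under scaling by totals and 0 to 1 without each library, with 1 call without abscopal replicate 2 or 5 of day 3 or abscopal replicate 2 of day 7. The pseudo-F ran from 1.21 to 1.96 without each library, the latter past 0.05 as given above.

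Log2 fold changes turned sign for 3 named genes: Isg15 to -0.11 with the replicate block (leave-one-out -0.17 to 0.30), Igkc to -0.49 without abscopal replicate 1 (-0.49 to 0.93) and Pmel to -0.56 without abscopal replicate 3 (-0.56 to 0.81). The cause was not tested. List medians under the alternatives were computed after seeing the data.

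Groups shared replicate numbers. The replicate block used only libraries whose number occurs in more than 1 group, which left out control replicates 5 to 10. It gave 1288 genes at an unadjusted p under 0.05, against 806 in the main fit. Its smallest adjusted p was 0.0939 in edgeR's test. Effects of the block and of the missing control libraries cannot be told apart in it. Deviations of same-numbered abscopal and control libraries correlated at -0.222 to 0.172, with 1 of 4 best with its own number, and abscopal and treated ones at 0.0873 to 0.338, with 3 of 3 best, a hint from the data and not the design, so numbers were not taken as pairs.

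With 4 abscopal libraries, log2 fold changes under about 0.43 did not reach an unadjusted p under 0.05 for a gene of usual spread. A call after adjustment needs larger ones, and genes near 3 counts carry little information.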
